A study of Mus musculus with 670 samples.

Results

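Single cells sorted as skeletal stem cells from the long bones of newborn mice, at postnatal day 3, were compared with cells sorted under the same population name from mice of 2 months. Skeletal stem cells were sequenced one to a well by SmartSeq2, a full-length method without molecular identifiers. The comparison took plate 9 for postnatal day 3 and plates 3 and 4 for 2 months, the plates with many usable cells; 1 more plate of 2-month cells with 15 usable cells enters as an alternative only. A cell was used when it had at least 1000 detected genes, at least 50000 reads on genes and under 20% of them on mitochondrially encoded genes. This kept 68 cells at postnatal day 3, against 70 on plate 3 and 69 on plate 4 at 2 months. They make up 30.9% of the 670 wells of the whole series and 87.3% of its cells that pass the same limits. At both ages the cells were untreated, were taken straight from digested bone without culture and were labelled male. Strain, genotype, the antibodies of the sort and the meaning of the codes in the cell names are not given in the labels. The labels name no animals either, so that an age is 1 sample here and no p-value is given. Plate 9 is labelled as batch 3, plate 3 as batch 5 and plate 4 as batch 1, so that age and batch cannot be told apart. Below, the value of plate 9 is followed by those of plates 3 and 4 in that order.

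The mouse skeletal stem cell is a sorted population of the growth plate region that is known to form cartilage, bone and stroma. At birth the long bones still grow fast, their ends are cartilage and their shafts are wrapped in a fibrous perichondrium and periosteum, while by young adulthood the ends hold bone, an articular surface and a thinner growth plate. Imprinted genes that drive growth before birth, such as Igf2, are known to be switched down in many tissues after it, and immediate early genes, such as Fos and Junb, are transcribed within minutes of many stimuli, cell handling among them.

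Depth and quality differed between the plates. The median cell had 1100488 reads on genes (range 93214 to 2246142) at postnatal day 3, against 758511 (62919 to 2208448) and 633464 (114736 to 2105702) at 2 months. For this reason every cell was thinned at random to 50000 reads. At that equal depth the median cell held 1758 genes (881 to 3329) at postnatal day 3, against 1278 (638 to 2782) and 1273 (717 to 2688) at 2 months, a ratio of 1.38. Mitochondrially encoded genes took a median of 0.342% of reads at postnatal day 3, against 0.845% and 1.03%, and spike-in RNA took 4.48% of all reads, against 7.08% and 9.16%. No pair of well indices was shared between plates.

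The labels were set against the data. Although plate 9 is labelled male, 22 of its 68 cells held reads of Xist, the RNA of the inactive X chromosome of females, and 1 of these also held reads of the 4 Y-linked genes examined. Y-linked reads without Xist were found in 10 cells of plate 9, against 32 and 42 cells on the 2-month plates, where no cell held Xist; 36 newborn cells, against 38 and 27, held neither. Reads of Xist cannot be told apart from those of its antisense partner Tsix, since the counting is not stated to use strand. The comparison below was therefore repeated without the 22 Xist cells. Of 5424 genes then tested by the size rule given below, 980 were higher at postnatal day 3 (18.1%) and 661 lower (12.2%). Of these, 703 and 508 were among those called with all cells. The main gene lists held their direction, with 12 of 17 imprinted genes and 12 of 15 fibrous collagens higher, and 22 of 23 immediate early and 8 of 10 bone genes lower. Cartilage matrix genes had a median log2 fold of -0.48 with 7 of 20 lower without the Xist cells, and of 0.01 with 3 of 20 lower with them. Of the sort markers known for this population, Cd200 was found in 16.2% of newborn cells, against 32.9% and 21.7% of 2-month cells, and Itgav in 17.6% of newborn cells, against 8.57% and 14.5% of 2-month cells. Ptprc, the pan-leukocyte marker CD45, was at 0 reads at postnatal day 3 and had 10 reads in all at 2 months, and Tek was at 0 at both ages. The series' own text speaks of bones of adult mice, whereas the age label of plate 9 is postnatal day 3.

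At both ages most sorted cells carried cartilage genes, but the newborn cells fell into a cartilage group and a fibrous group. Of 11 chondrocyte markers (Col2a1, Acan, Sox9, Col9a1, Col9a2, Col11a2, Matn1, Matn3, Hapln1, Cnmd and Comp), at least 4 were found in 43 newborn cells, 63.2% (95% Clopper-Pearson interval 50.7 to 74.6%), against 63 cells, 90% (80.5 to 95.9%), and 56 cells, 81.2% (69.9 to 89.6%), on the 2-month plates. No newborn cell held 4 to 6 of them, 25 held fewer and 43 held 7 or more, whereas 21 and 9 cells of the 2-month plates lay in that middle range. Markers of fibroblasts and of the perichondrium and periosteum, 14 in all, went the other way: at least 3 were found in 29 newborn cells, 42.6% (30.7 to 55.2%), against 3 cells, 4.29% (0.893 to 12.02%), and 2 cells, 2.90% (0.353 to 10.1%), at 2 months. Cells with 4 or more are called cells with chondrocyte markers below, and the others, of which 11 newborn cells held none, cells under the marker limit. Of the 25 newborn cells under that limit 21 carried at least 3 fibrous markers, and 8 newborn cells passed both limits. These limits of 4 and 3 markers were chosen after the values were seen, and all intervals cover counting error only, which is a lower bound since reads copied by PCR are not independent molecules.

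**Figure D1:**
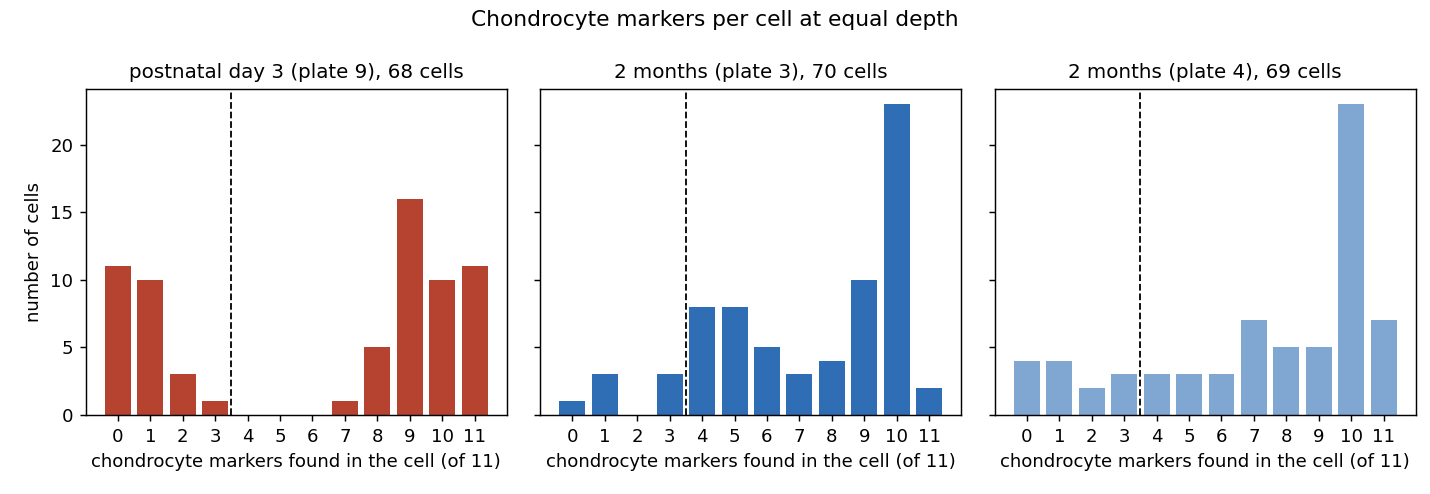
Number of cells (vertical axis) by how many of 11 chondrocyte markers were found in them (horizontal axis), at equal depth, for plate 9 at postnatal day 3 and plates 3 and 4 at 2 months; the dashed line marks the limit of 4. The newborn cells form 25 cells left of the line and 43 at 7 markers or more with none between, while 21 and 9 cells of the 2-month plates hold 4 to 6.

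The summed levels of the marker lists differed between the ages for some lists and not for others. The 8 fibroblast markers summed to 1489 CPM (reads per 1000000, mean over cells) at postnatal day 3, against 130.9 and 74.5 CPM at 2 months. The 6 perichondrium and periosteum markers took 0.309% of reads at postnatal day 3, against 0.0174% and 0.0117% at 2 months. Dpp4 was at 0 on all 3 plates, Col14a1 and Clec3b on both 2-month plates, and Aspn, Tnn and Sfrp2 on plate 4. The chondrocyte markers summed to 78466 CPM, against 72126 and 76123 CPM, so that their total differed little although fewer newborn cells carried them. Tendon markers summed to 10237 CPM, against 11401 and 6864 CPM, and marrow stromal markers to 427 CPM, against 581 and 213.3 CPM. Macrophage and osteoclast markers summed to 137.1 CPM, against 160.6 and 91.9 CPM. The newborn sums of these lists lay between those of the 2-month plates, but such sums can rest on few members. Fmod, of the tendon list, had 12955 CPM in newborn cells with chondrocyte markers and 2985 CPM in those under the limit. By the size rule given below 2 of 4 tested tendon markers were higher. In newborn cells Adgre1, C1qa, Csf1r and Mpeg1 were at 0, while Ctsk, also a periosteum marker here, had 51.2 and 219.2 CPM in the same groups. The 8 osteoblast markers summed to 896 CPM, against 7449 and 7648 CPM. Pan-leukocyte markers were all at 0 at postnatal day 3 and summed to 110.3 and 151.3 CPM at 2 months, endothelial markers summed to 50 CPM, against 5.14 and 14.2 CPM, and erythroid markers to under 10 CPM on each plate. A fall in the share of a cell type and a fall in its RNA per cell cannot be told apart in a mean over cells. Most gene groups below are therefore also given within the cells that carry chondrocyte markers, 43 newborn cells against 63 and 56.

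A gene was tested when it reached 20 CPM and 10% of cells at one of the ages, and was called higher or lower when the newborn plate lay at least 2-fold (1 CPM added) above or below the mean of the 2-month plates and each of them. By this size rule 857 of 5480 genes were higher at postnatal day 3, 15.6% of those tested, and 582 were lower, 10.6%. At 4-fold, 4.54% of them were higher and 3.91% lower. A value in parentheses after a gene is its log2 fold, postnatal day 3 over 2 months. For scale, 32.3% of the genes tested between plates 3 and 4, which are of 1 age, differed 2-fold, against 43.7% between plates 9 and 3 and 45.5% between plates 9 and 4. The median size of the log2 difference was 0.64 between plates 3 and 4, against 0.88 and 0.90. Single folds near the 2-fold limit are therefore close to the spread between plates of the same age. The 11998 genes that passed the limit of 5 CPM used for list medians had a median log2 fold of -0.00, called the median of all genes below. Without a filter on low values 21199 genes were tested and the median was -0.28. With the 15 cells of the sparse 2-month plate added, 680 genes were higher and 270 lower, and with plate 3 or plate 4 left out, 1560 or 1479 were higher and 971 or 977 lower. In the cells with chondrocyte markers 790 of 5283 genes were higher (15%) and 669 lower (12.7%), and 523 of the 857 and 429 of the 582 genes called in all cells were called in the same direction.

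**Figure D2:**
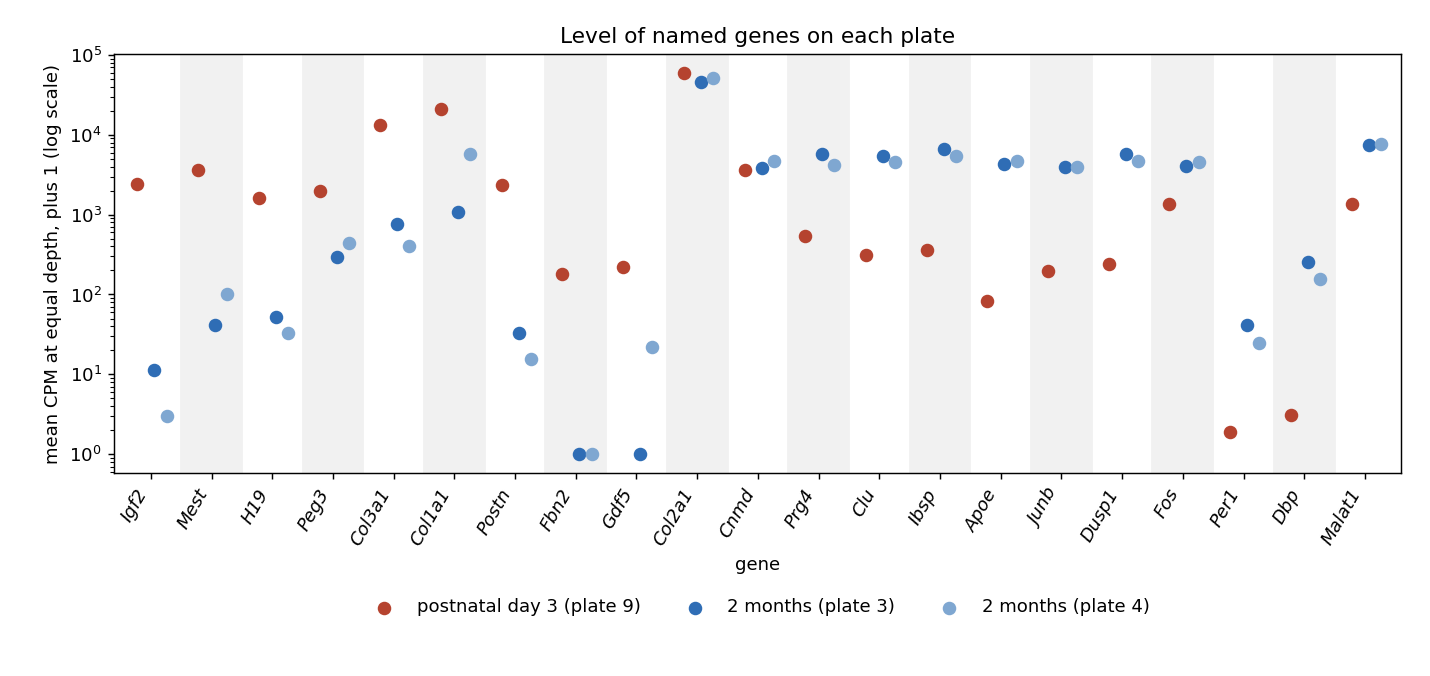
Level of 21 genes on plate 9 (postnatal day 3) and plates 3 and 4 (2 months), as mean CPM over cells plus 1 on a log axis. Igf2, Mest, H19, Postn and the fibrous genes lie higher on plate 9 than on both 2-month plates, the early response and bone genes lie lower, and Col2a1 lies near the same height on all 3.

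Most imprinted growth genes were higher at postnatal day 3, in all cells and within the chondrocyte-marker cells. Of 17 of the 20 listed genes that could be tested, 12 were higher and 1 was lower, with a median log2 fold of 1.99 over the 18 members above 5 CPM. In the chondrocyte-marker cells these figures were 13, 2 and 2.01. Igf2, the fetal insulin-like growth factor (GRCm38, chr7:142650766-142666816 (-)), had 2435 CPM at postnatal day 3, against 10.3 and 2.03 CPM at 2 months, a log2 fold of 8.41. It was found in 97.1% of newborn cells (95% interval 89.8 to 99.6%), against 4.29% and 2.90% of cells on the 2-month plates (both together 1.18 to 8.19%). The median cell held 1670.0 CPM, against 0 and 0 CPM, so that nearly every newborn cell carried Igf2 and nearly every 2-month cell did not. H19, the long noncoding RNA of the same imprinted locus (chr7:142575529-142578143 (-)), had 1631 CPM at postnatal day 3, against 51.7 and 31.9 CPM at 2 months, a log2 fold of 5.25. Mest, a hydrolase-like protein encoded on chromosome 6 (chr6:30723547-30748465 (+)), had 3572 CPM at postnatal day 3, against 40.6 and 101.2 CPM at 2 months, a log2 fold of 5.64, and its median cell held 2350.0 CPM, against 0 and 0 CPM.

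The other imprinted genes spanned a range of folds. Dlk1, a membrane ligand of the Notch family that restrains adipocyte formation, had 25.6 CPM at postnatal day 3, against 0 and 0 CPM at 2 months and was found in 50% of newborn cells, against 0% and 0% of 2-month cells. This makes it at least 59.3-fold higher, with 3 reads over the cells of an age taken as the floor of a count of 0. Peg3, a zinc finger protein, had 1949 CPM at postnatal day 3, against 293 and 446 CPM at 2 months (log2 fold 2.395). Plagl1, a transcription factor known to regulate an imprinted gene network, had 338 CPM at postnatal day 3, against 72.6 and 91.3 CPM at 2 months (2.03). Cdkn1c, the cyclin-dependent kinase inhibitor p57, had 1171 CPM at postnatal day 3, against 326 and 397 CPM at 2 months (1.69). Grb10, an adaptor that dampens insulin receptor signals, had a log2 fold of 1.84, Gnas, the stimulatory G protein subunit, 2.20, and Igf2r, the receptor that clears Igf2, 1.65. These genes were found in newborn cells with chondrocyte markers and in those under the limit: Igf2 at 1856 and 3431 CPM, H19 at 1853 and 1250.4 CPM and Gnas at 2972 and 2913 CPM. Peg3 lay higher in the cells with the markers, at 2576 and 870 CPM, as did Plagl1, at 455 and 135.2 CPM. Cdkn1c, at 1516 and 578 CPM, and Dlk1, at 35.8 and 8.0 CPM, also lay higher there. Mest, like Igf2, lay higher in the cells under the limit, at 3000 CPM with the markers and 4556 CPM under it. Impact, a regulator of translation, was the member that was lower, with 24.1 CPM at postnatal day 3, against 113.4 and 185.8 CPM at 2 months, a log2 fold of -2.58. Meg3, a long noncoding RNA, had 899 CPM at postnatal day 3, against 453 and 437 CPM at 2 months and lay just under 2-fold against one of the plates. Summed over the list, the median newborn cell held 16630.0 CPM, against 3880 and 2780 CPM at 2 months.

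Fibrous tissue collagens were higher as a group. All 15 listed were tested, 12 were higher and none lower, with a median log2 fold of 2.03. Col3a1, the collagen of soft connective tissue (chr1:45311538-45349706 (+)), had 13257 CPM at postnatal day 3, against 758 and 406 CPM at 2 months and was found in 86.8% of newborn cells (95% interval 76.4 to 93.8%), against 31.4% and 20.3% of cells on the 2-month plates (both together 18.8 to 34.01%). Its log2 fold was 4.51. Collagen I, the main collagen of bone and tendon, had 21281 CPM at postnatal day 3, against 1090.0 and 5820.3 CPM at 2 months for its chain Col1a1 (2.62). It had 18904 CPM at postnatal day 3, against 2570.3 and 6664 CPM at 2 months for Col1a2 (2.03). Plates 3 and 4 differed in Col1a1 by more than 2-fold, but both lay below plate 9. Col14a1, a fibril-associated collagen, had 447 CPM at postnatal day 3, against 0 and 0 CPM at 2 months, and was at least 1035-fold higher. Col5a1, Col16a1 and Col6a1 had log2 folds of 3.25, 2.09 and 1.58. Within the chondrocyte-marker cells 8 of 13 tested collagens were still higher and none lower (median 1.62), among them Col3a1 (2.72), Col1a1 (3.22) and Col5a1 (2.22), whereas Col5a3, with a log2 fold of 2.99 in all cells, had no newborn read there, against 3.53 CPM at 2 months. Newborn cells with chondrocyte markers held 3795 CPM of Col3a1 and those under the limit held 29530.4 CPM.

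Elastic fibre and microfibril genes had 11 of 18 tested members higher and none lower, with a median of 1.67. Fbn2, the fibrillin of developing tissue, had 178.5 CPM at postnatal day 3, against 0 and 0 CPM at 2 months, at least 414-fold higher, and stood at 166.98 and 198.4 CPM in newborn cells with chondrocyte markers and under the limit. Mfap2, a microfibril protein, had 553 CPM at postnatal day 3, against 20 and 14.8 CPM at 2 months, a log2 fold of 4.91, and was found in 66.2% of newborn cells, against 5.71% and 5.80% of 2-month cells. Other members lay only in newborn cells under the marker limit: Mfap4, Mfap5 and Aspn, a leucine-rich proteoglycan of fibrous tissue, were at 1529.6, 622 and 713 CPM there and at 0 in the 43 newborn cells with the markers. Over all cells Mfap4 had 562 CPM at postnatal day 3, against 0.286 and 0 CPM at 2 months, a ratio of 3908 (counting interval 701 to 154451) that rests on 1 read at 2 months. Aspn had 262.1 CPM at postnatal day 3, against 0.286 and 0 CPM at 2 months, a ratio of 1821 (counting interval 326 to 72018) of the same kind. Mfap5 had 228.8 CPM at postnatal day 3, against 1.14 and 0.870 CPM at 2 months, a log2 fold of 6.84. Ltbp4, a binding protein of latent TGF-beta, had 127.9 CPM at postnatal day 3, against 0 and 0.870 CPM at 2 months, a ratio of 296 (counting interval 100.8 to 1443). Fbn1, the main fibrillin, had a log2 fold of 1.67 in all cells and of -0.78 within the chondrocyte-marker cells, where 5 of 12 tested elastic fibre genes were higher (median 1.01).

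Matricellular and adhesion proteins divided, with 5 of 16 tested higher, 3 lower and a median of -0.21. Postn, or periostin, a matrix protein of periosteum and ligament (chr3:54361109-54391037 (+)), had 2367 CPM at postnatal day 3, against 31.7 and 14.5 CPM at 2 months, a log2 fold of 6.62. Newborn cells under the marker limit held 6123 CPM and those with the markers 182.8 CPM. Tnc, tenascin C, had 988 CPM at postnatal day 3, against 169.7 and 303 CPM at 2 months (2.06). Thbs2, a thrombospondin, had 1018 CPM at postnatal day 3, against 92.9 and 44.3 CPM at 2 months (3.87). Tgfbi, a TGF-beta-induced adhesion protein, had 1418 CPM at postnatal day 3, against 177.4 and 180.9 CPM at 2 months (2.98). Lower were Spp1, or osteopontin, the growth factor Ctgf (-1.93) and Thbs1 (-1.41). Tnc (3.72), Thbs2 (2.71) and Tgfbi (2.80) were also higher within chondrocyte-marker cells. Small leucine-rich proteoglycans also divided, with 3 of 11 tested higher (Kera, Aspn and Bgn) and 3 lower (Omd, Chad and Epyc). Kera, keratocan, a proteoglycan of cornea and tendon, had 267.9 CPM at postnatal day 3, against 0 and 0 CPM at 2 months, at least 621-fold higher. Omd, osteomodulin of bone, had 4.12 CPM at postnatal day 3, against 326 and 163.2 CPM at 2 months (-5.58). Chad, chondroadherin of cartilage, had 1038 CPM at postnatal day 3, against 12751 and 6604 CPM at 2 months (-3.22).

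Cytoskeleton genes differed between all cells and the chondrocyte-marker cells. Over all cells 12 of 22 tested were higher and 1 lower, with a median of 1.196. Within the chondrocyte-marker cells 1 of 16 was higher, 2 were lower and the median was 0.12. Vim, vimentin, had 1071 CPM at postnatal day 3, against 507 and 281.2 CPM at 2 months (1.44), but a log2 fold of -0.63 within those cells. Tmsb4x, thymosin beta 4, had -2.17 within them and 1.62 over all cells. Lgals1, galectin 1, was the member higher in both, with 643 CPM at postnatal day 3, against 28.9 and 113.6 CPM at 2 months (3.16, and 2.36 within). Acta2, smooth muscle actin, had the highest fitted fold of all genes, with 928 CPM at postnatal day 3, against 0 and 0.290 CPM at 2 months, a ratio of 6449 (counting interval 1157 to 254809), but 83.7% of its newborn reads lay in 1 cell. The smooth muscle genes Myh11 and Cnn1 were found in 1 newborn cell each and Tagln in 3, with 98.6% of its reads in 1, so that the levels of these 3 genes describe single cells.

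**Figure D3:**
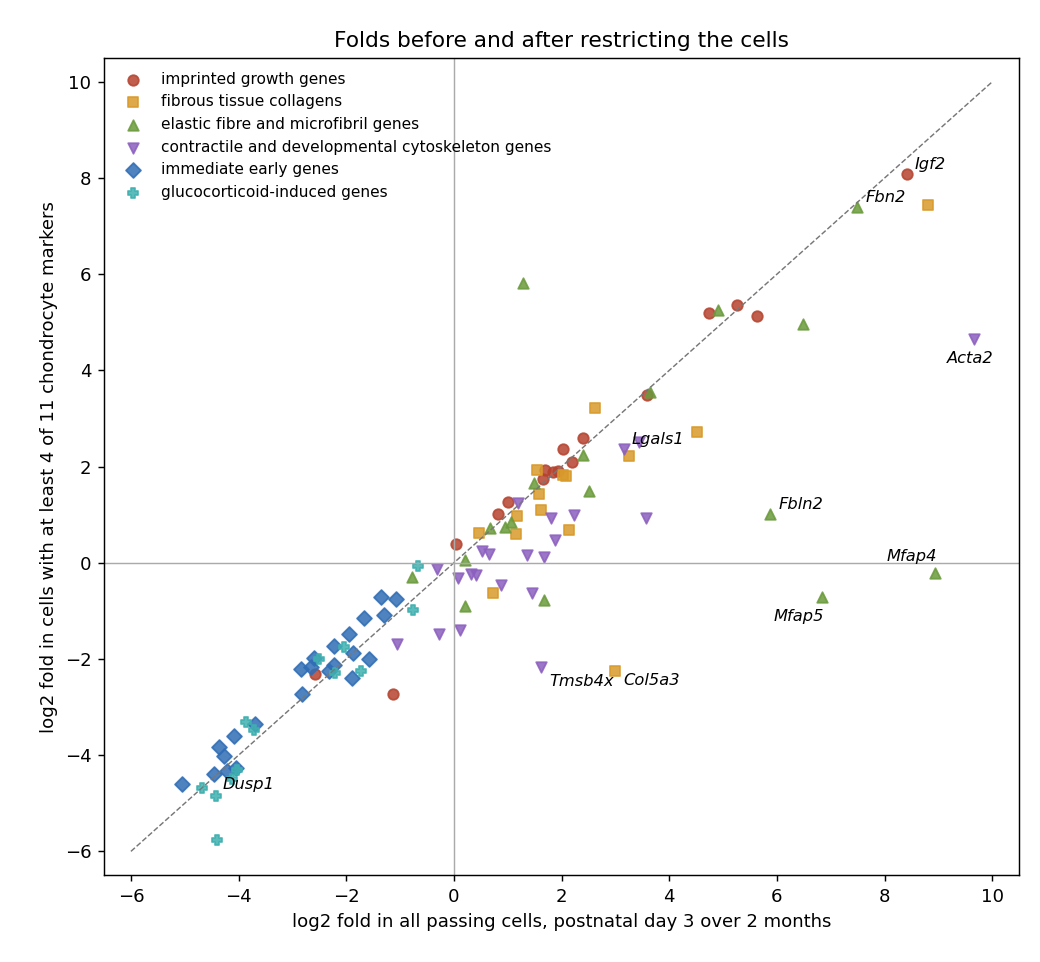
Log2 fold, postnatal day 3 over 2 months, in all cells (horizontal axis) and in cells with at least 4 of 11 chondrocyte markers (vertical axis), for the tested members of 6 lists; the dashed line marks equality. Most imprinted and early response genes lie near the line, while many collagen, elastic fibre and cytoskeleton genes lie below it, with Vim at 1.44 in all cells and -0.63 within the marker cells. Col5a3, Mfap4 and Mfap5 had no newborn read in the marker cells.

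Of 20 tested cartilage matrix genes 1 was higher (5%) and 3 were lower (15%), against 15.6% and 10.6% of all genes, and the median was 0.01. Without the Xist cells 7 of 20 were lower (median -0.48). With mitochondrial, nuclear and repeat-like RNA left out 5 of 20 were lower (median -0.07). Within chondrocyte-marker cells 1 was higher, 1 lower and the median was 0.43. All 11 markers that chose these cells, Matn1 among them, are members of this list, so values within the cells depend on that choice. The 43 newborn cells so chosen all held 7 or more markers, whereas 21 and 9 of the 2-month cells held 4 to 6. Col2a1, the collagen of cartilage, had 59200.0 CPM at postnatal day 3, against 46349 and 50792 CPM at 2 months, a log2 fold of 0.29, although it was found in 64.7% of newborn cells, against 91.4% and 78.3% of 2-month cells. Acan, or aggrecan, had 809 CPM at postnatal day 3, against 1282 and 1635 CPM at 2 months. Cnmd, or chondromodulin, had 3641 CPM at postnatal day 3, against 3851 and 4644 CPM at 2 months. Sox9, the transcription factor of cartilage, had 343 CPM at postnatal day 3, against 683 and 696 CPM at 2 months. None of the 3 passed the rule. Matn1, a matrilin of growing cartilage, was the member that was higher, with 677 CPM at postnatal day 3, against 65.7 and 147.5 CPM at 2 months, a log2 fold of 2.66 in all cells and 3.06 within. Cytl1, a secreted cartilage protein, was lower, with 831 CPM at postnatal day 3, against 18287 and 7571 CPM at 2 months (-3.96), and Col27a1 (-1.88) and Snorc (-1.44) were lower over all cells.

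Joint surface genes went both ways, with 3 of 11 tested higher, 3 lower and a median of -0.23. Gdf5, the growth factor of the embryonic joint interzone, had 217.6 CPM at postnatal day 3, against 0 and 20.9 CPM at 2 months (4.26), although 65.8% of its newborn reads lay in 1 cell. Prg4, lubricin of the articular surface, had 533 CPM at postnatal day 3, against 5817 and 4129 CPM at 2 months (-3.22) and was found in 30.9% of newborn cells, against 38.6% and 18.8% of 2-month cells. It was at 0 in newborn cells under the marker limit. Clu, clusterin, had 308 CPM at postnatal day 3, against 5411 and 4584 CPM at 2 months (-4.02). Cilp, a protein of the intermediate layer of cartilage, had 142.4 CPM at postnatal day 3, against 1627 and 1100.0 CPM at 2 months (-3.25). Dkk3, a secreted protein of the Dickkopf family (2.10), and Tppp3, a tubulin-binding protein of tendon sheath and joint cells (4.15), were higher over all cells, and had log2 folds of 0.29 and 0.16 within the chondrocyte-marker cells.

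Most tested genes of growth plate hypertrophy and signals, and of bone, were lower. Of 11 tested growth plate genes 7 were lower and none higher (median -1.87), and within chondrocyte-marker cells 5 of 10 were lower (median -1.36). Mmp13, the collagenase of hypertrophic cartilage and bone, was at 0 in newborn cells against 575 and 773 CPM at 2 months, at least 764-fold lower. Its 2-month level was 117.6 CPM in cells with chondrocyte markers and 3981 CPM in the 20 cells under the marker limit. Pth1r, the receptor of parathyroid hormone and its related peptide, had 179.1 CPM at postnatal day 3, against 543 and 818 CPM at 2 months (-1.92). Pthlh, the gene of that peptide, had 18.2 CPM at postnatal day 3, against 102.6 and 162.3 CPM at 2 months (-2.79). Panx3, a channel protein of hypertrophic chondrocytes and osteoblasts, had 54.7 CPM at postnatal day 3, against 160.6 and 376 CPM at 2 months (-2.27). Col10a1, the collagen of hypertrophic cells, had 469 CPM at postnatal day 3, against 15.7 and 15.7 CPM at 2 months, but lay in 2.94% of newborn cells, under the limit for testing.

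Of 10 tested genes of osteoblasts and their matrix, 8 passed downward and none upward, with a median of -3.46 over 16 members, or -3.50 with genes at 0 set to their bound. The size of this median differed between the 2-month plates, at -1.68 against plate 3 alone and -3.91 against plate 4 alone. Ibsp, bone sialoprotein, had 355 CPM at postnatal day 3, against 6642 and 5422 CPM at 2 months (-4.08), with 86.1% of the newborn reads in 1 cell. Spp1 had 228.8 CPM at postnatal day 3, against 4007 and 10668 CPM at 2 months (-5.00) and lay in 1 newborn cell. Runx2, the transcription factor of osteoblasts and hypertrophic chondrocytes, had 23.2 CPM at postnatal day 3, against 121.1 and 184.9 CPM at 2 months (-2.67). The osteocalcin genes Bglap and Bglap2, which are near-identical and may share reads, had 17.4 CPM at postnatal day 3, against 74.9 and 246.1 CPM at 2 months (-3.14) and 3.53 CPM at postnatal day 3, against 43.7 and 312 CPM at 2 months (-5.30). Sp7 and Alpl, also of osteoblasts, had 84.1 CPM at postnatal day 3, against 30.9 and 115.4 CPM at 2 months and 411 CPM at postnatal day 3, against 533 and 510.1 CPM at 2 months and did not pass. Within chondrocyte-marker cells 9 of 10 were lower (median -2.78). Summed over the list, 37 of 68 newborn cells held no read of these genes, against 15 of 70 and 11 of 69 cells at 2 months, and the median cell held 0 CPM, against 1400.0 and 2060.0 CPM.

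**Figure D4:**
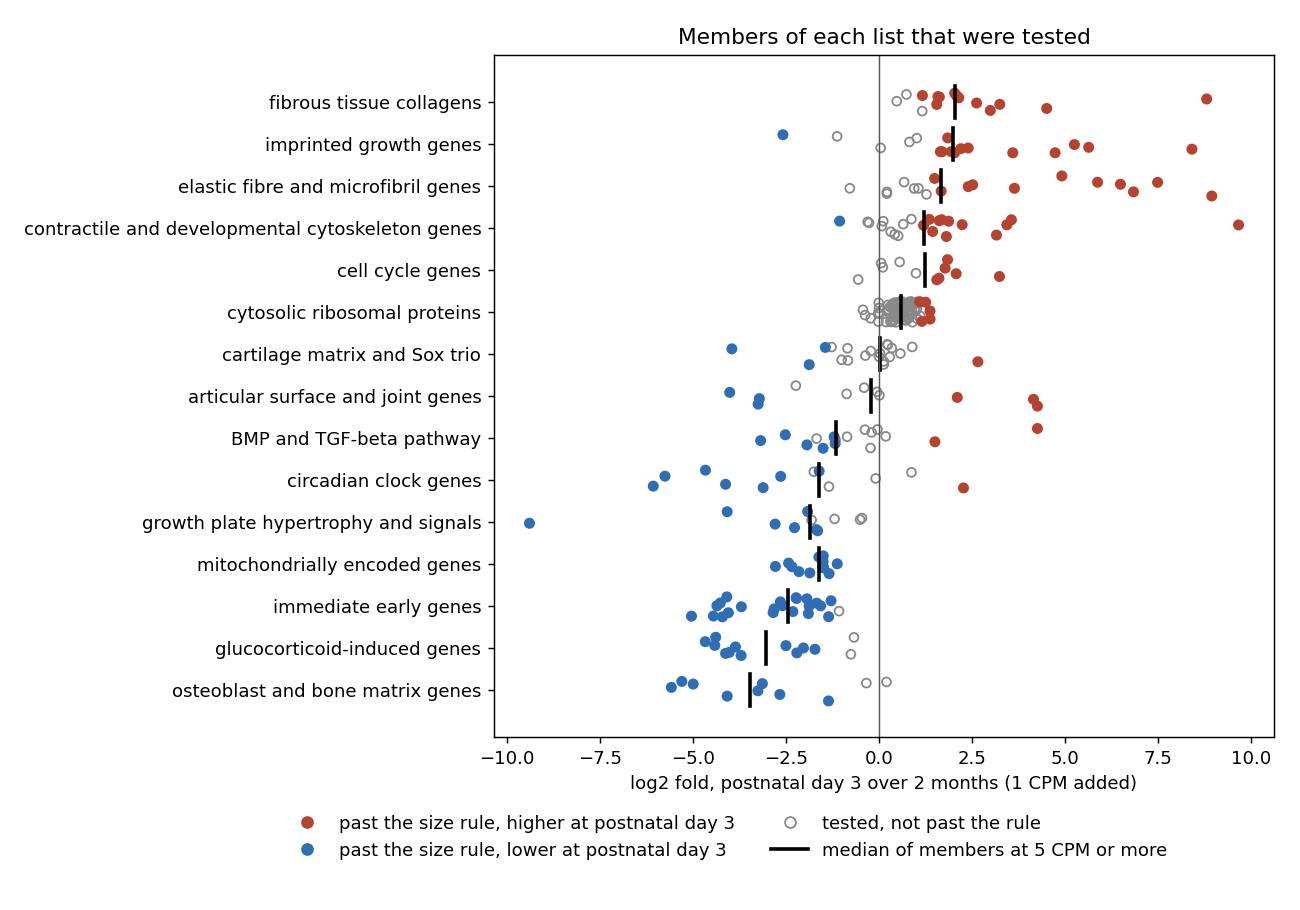
Log2 fold, postnatal day 3 over 2 months, of the members of 15 gene lists; filled red points are higher and filled blue points lower by the size rule, open points are tested genes that are neither, and the black bar is the median of members above 5 CPM. The bars of imprinted genes and fibrous collagens lie near 2, those of glucocorticoid-induced and bone genes near -3, and that of cartilage matrix at 0.

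Immediate early genes were lower in the newborn cells almost without exception: 22 of 23 tested were lower and none higher, with a median of -2.46. Junb, a subunit of the AP-1 transcription factor (chr8:84974484-84978718 (-)), had 193.8 CPM at postnatal day 3, against 3999 and 3997 CPM at 2 months (-4.36) and was found in 33.8% of newborn cells (95% interval 22.8 to 46.3%), against 80% and 78.3% of cells on the 2-month plates (both together 71.4 to 85.6%). Its median cell held 0 CPM, against 2460.0 and 2160.0 CPM. Dusp1, a phosphatase that ends MAP kinase signals (chr17:26505590-26562128 (-)), had 237.9 CPM at postnatal day 3, against 5719 and 4752 CPM at 2 months (-4.45), with 0 CPM, against 1820.0 and 1000 CPM in the median cell. Jun had 419 CPM at postnatal day 3, against 4912 and 6007 CPM at 2 months (-3.70). Btg2, an antiproliferative gene, had 149.7 CPM at postnatal day 3, against 2543 and 2601 CPM at 2 months (-4.09). Zfp36, which binds and destabilises messenger RNA, had 9.12 CPM at postnatal day 3, against 344 and 321 CPM at 2 months (-5.04). Atf3, a stress-induced factor, had 33.2 CPM at postnatal day 3, against 673 and 594 CPM at 2 months (-4.21). Socs3, an inhibitor of cytokine signals, had 82.4 CPM at postnatal day 3, against 2041 and 1171 CPM at 2 months (-4.27). Fos and Egr1 were lower by less, with 1342 CPM at postnatal day 3, against 4011 and 4573 CPM at 2 months (-1.68) and 524 CPM at postnatal day 3, against 1529 and 1155 CPM at 2 months (-1.36). Klf2, a zinc finger factor, was the tested member that did not pass, with 24.7 CPM at postnatal day 3, against 41.1 and 65.2 CPM at 2 months. Hbegf, an epidermal growth factor family ligand that is also induced early, had 0.294 CPM at postnatal day 3, against 183.4 and 89.6 CPM at 2 months, a ratio of 2 months over postnatal day 3 of 465 (counting interval 83.3 to 18395) that rests on 1 newborn read.

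The newborn reads of several of these genes lay nearly all in cells with chondrocyte markers. Junb was at 306 CPM in newborn cells with the markers and 1.60 CPM in those under the limit, Fos at 2122 and 0 CPM, and Egr1 at 824 and 6.40 CPM. Other members of the list differed from these. Dusp1 was at 253.02 CPM in the cells with the markers and a similar level in those under the limit. Atf3 was at 33.5 and 32.8 CPM, and Socs3 at 95.8 and 59.2 CPM. Klf6, at 161.9 and 274.4 CPM, and Nr4a2, at 33.5 and 85.6 CPM, lay higher in the cells under the limit. Within chondrocyte-marker cells 19 of 23 immediate early genes were still lower and none higher (median -2.21), Junb by -3.83 and Dusp1 by -4.40, while Egr1 (-0.71) and Myc (-1.08) no longer passed. With the sparse 2-month plate added, 11 immediate early and 6 glucocorticoid-induced genes were lower.

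Glucocorticoid-induced genes followed the same direction, with 11 of 13 tested lower, none higher and a median of -3.03 (11 of 13 and -3.08 within chondrocyte-marker cells). Fkbp5, a co-chaperone of the glucocorticoid receptor, had 5.29 CPM at postnatal day 3, against 98.6 and 104.9 CPM at 2 months (-4.03). Tsc22d3, or GILZ, had 130.6 CPM at postnatal day 3, against 536 and 681 CPM at 2 months (-2.21). Cebpd, a transcription factor of the C/EBP family, had 28.5 CPM at postnatal day 3, against 701 and 559 CPM at 2 months (-4.42). Sgk1, a serum- and glucocorticoid-regulated kinase, had 57.1 CPM at postnatal day 3, against 213.1 and 168.1 CPM at 2 months (-1.72). The metallothioneins Mt1 and Mt2, which bind metals, had 8.53 CPM at postnatal day 3, against 212.3 and 186.1 CPM at 2 months (-4.39) and 0 CPM at postnatal day 3, against 19.4 and 29.6 CPM at 2 months, the second at least 27.8-fold lower. Nr3c1, the glucocorticoid receptor, had 118.5 CPM at postnatal day 3, against 208.6 and 193.6 CPM at 2 months and did not pass.

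Of 12 tested circadian clock genes 7 were lower and 1 was higher, with a median of -1.61 (7 and 2 of 14, and -2.69, within chondrocyte-marker cells). Dbp, an output factor of the clock, had 2.06 CPM at postnatal day 3, against 251.7 and 157.4 CPM at 2 months (-6.07). Nr1d1, the repressor Rev-erb alpha, had 6.47 CPM at postnatal day 3, against 210.9 and 166.96 CPM at 2 months (-4.67). Bhlhe41, the repressor Dec2, had 3.53 CPM at postnatal day 3, against 210 and 277.4 CPM at 2 months (-5.76), found in 7.35% of newborn cells (95% interval 2.43 to 16.3%), against 64.3% and 63.8% of cells on the 2-month plates (both together 55.5 to 71.99%). Per1, a core clock gene that glucocorticoids also induce, had 0.882 CPM at postnatal day 3, against 40 and 23.8 CPM at 2 months, a ratio of 2 months over postnatal day 3 of 36.2 (counting interval 12.2 to 176.9) on 3 newborn reads. Per3 had 21.2 CPM at postnatal day 3, against 135.7 and 139.7 CPM at 2 months (-2.64). Cry1, a cryptochrome that acts in the other phase of the cycle, was the member that was higher, with 90.6 CPM at postnatal day 3, against 35.4 and 0.580 CPM at 2 months (2.27). Arntl and Clock, the activating pair, had 20.6 CPM at postnatal day 3, against 8 and 41.4 CPM at 2 months and 20.9 CPM at postnatal day 3, against 11.1 and 33.6 CPM at 2 months, both under the limit for testing.

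Stretches of promoter upstream of 4 of these genes are shown because each holds an element known to drive genes of its list in other settings. The 250 bases before the start in the RefSeq promoter table for GRCm38.p6 were searched on both strands for 5 motifs in 32851 promoters. Shares of all promoters are per promoter, whereas a listed gene counted when any of its promoters held the motif. The 22 immediate early, 15 glucocorticoid-induced and 16 clock genes matched had 28, 25 and 21 promoters. The list counts therefore are not on the same footing as the shares of all promoters. TGACGTCA, the cyclic AMP response element, was in 1.55% of all promoters and in those of 3 of 22 matched immediate early genes, Btg2, Dusp1 and Maff. CACGTG, the E-box bound by the clock's activators, was in 6.02% of all promoters and in those of 5 of 16 matched clock genes, Bhlhe41, Ciart, Cry1, Per1 and Tef, but also in 5 of 22 immediate early and 5 of 15 glucocorticoid-induced genes. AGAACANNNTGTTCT, the palindromic glucocorticoid response element, was in 3 of all promoters (0.00913%), of which Sgk1 was 1. TGANTCA, the AP-1 element, was in 6.75% of all promoters and in none of the 22 immediate early ones, and TTATGTAA, the D-box, was in 0.819% and in 1 clock gene, Per3. In the lines below, read 5′ to 3′ along the gene, capitals mark the element with 50 bases on each side, from chr1:134079264-134079371 (minus strand), chr17:26508558-26508665 (minus strand), chr11:69098733-69098838 (plus strand) and chr10:21993651-21993765 (plus strand). A match is a description of the letters and not a site shown to be bound.
Btg2: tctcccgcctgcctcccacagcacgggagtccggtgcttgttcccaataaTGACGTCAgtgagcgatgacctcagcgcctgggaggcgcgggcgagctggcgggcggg
Dusp1: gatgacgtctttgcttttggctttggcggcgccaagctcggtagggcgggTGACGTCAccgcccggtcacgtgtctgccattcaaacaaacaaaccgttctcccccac
Per1: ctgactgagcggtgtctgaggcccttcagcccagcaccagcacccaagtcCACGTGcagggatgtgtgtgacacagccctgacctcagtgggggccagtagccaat
Sgk1: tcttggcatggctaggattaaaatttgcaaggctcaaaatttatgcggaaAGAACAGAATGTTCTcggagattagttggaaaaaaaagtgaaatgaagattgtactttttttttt

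Other RNA classes moved with the same plates. All 12 tested mitochondrially encoded genes were lower at postnatal day 3 (median -1.62), such as mt-Co1, a subunit of cytochrome oxidase, with 2720.3 CPM at postnatal day 3, against 7531 and 8043 CPM at 2 months (-1.52). The nuclear long noncoding RNAs Malat1 and Neat1 were lower too, with 1352 CPM at postnatal day 3, against 7405 and 7595 CPM at 2 months (-2.47) and 232.9 CPM at postnatal day 3, against 1896 and 2172 CPM at 2 months (-3.12). A set of 13 predicted genes that read like repeats, picked after their values were seen, summed to 40 CPM in the median newborn cell, against 5000.0 and 8760.0 CPM at 2 months. With all these RNA classes left out of the reads, 813 genes were higher and 600 lower, and 745 and 514 of them were among those called before. Summed over each list, immediate early genes took 1860.0 CPM in the median newborn cell, against 23310.0 and 27820.0 CPM at 2 months, and the highest newborn cell, at 22660.0 CPM, lay below both 2-month medians. The same sums were 370.0 CPM, against 3090.0 and 2200.0 CPM, for glucocorticoid-induced genes and 360.0 CPM, against 1770.0 and 1680.0 CPM, for clock genes. With these RNA classes left out, 22 of 23 immediate early genes (median -2.67), 11 of 13 glucocorticoid-induced genes (-3.20) and 7 of 12 clock genes (-1.65) were lower. Batch and age cannot be told apart in these values.

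**Figure D5:**
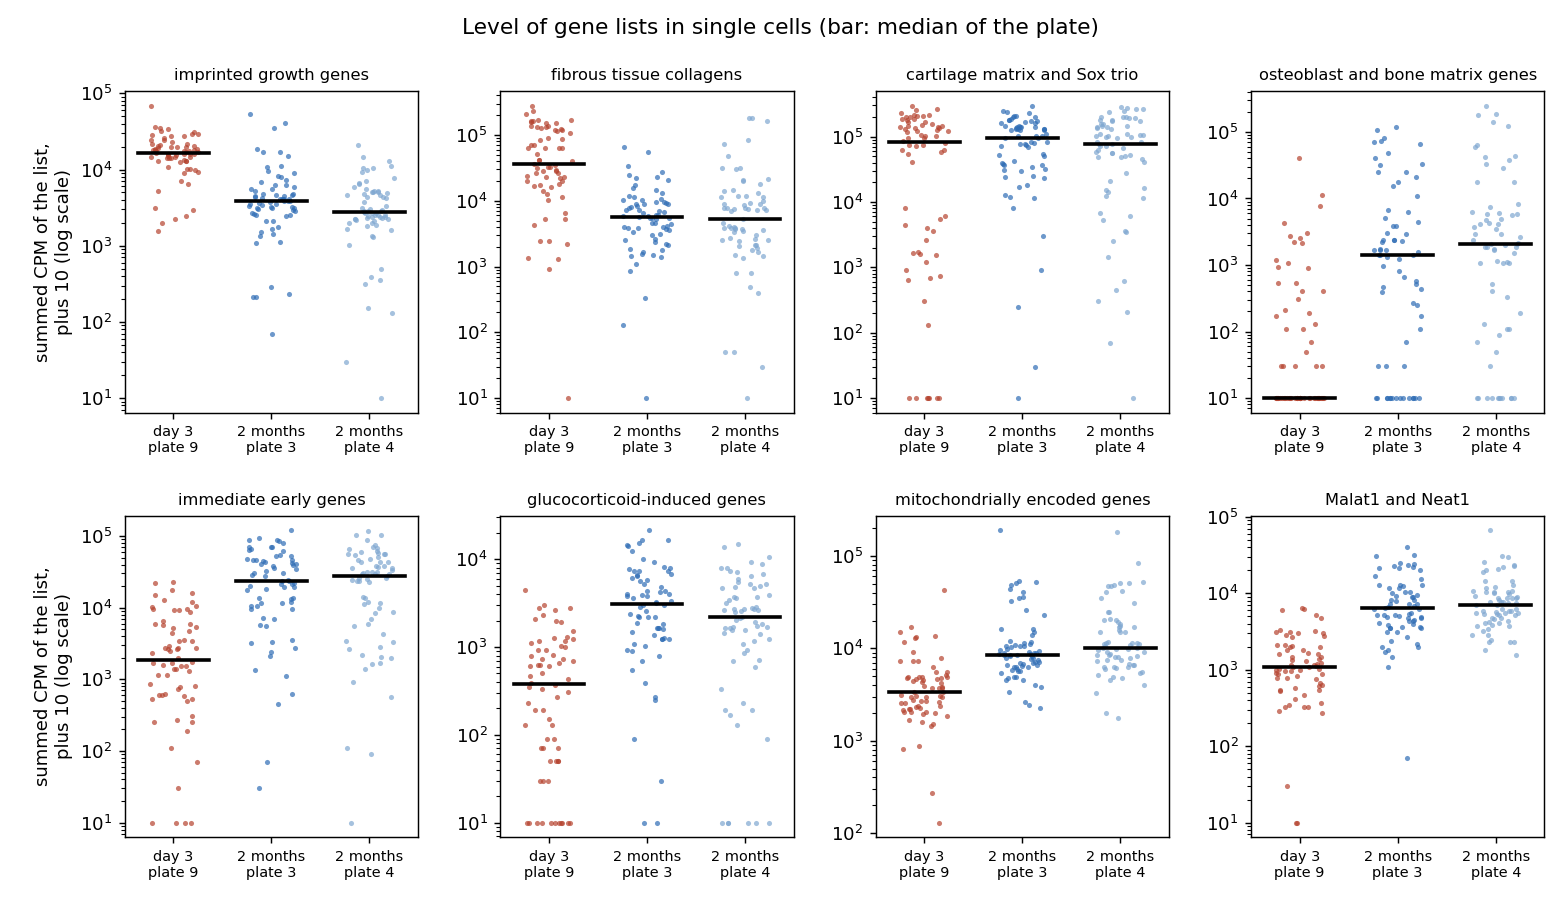
Summed CPM of 8 gene lists in single cells (vertical log axis, 10 CPM added) on plate 9 (postnatal day 3) and plates 3 and 4 (2 months), 1 point a cell, with the median as a bar. Imprinted genes and fibrous collagens lie higher in newborn cells, at medians of 16630.0 and 36100.0 CPM, immediate early genes lie lower, at 1860.0 CPM against 23310.0 and 27820.0 CPM, and each list drawn overlaps between the ages.

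Heat shock genes showed single large differences. Of 13 tested 4 were lower and none higher, with a median of -0.85. Hspa1a, the inducible Hsp70, had 23.2 CPM at postnatal day 3, against 1967 and 2765 CPM at 2 months (-6.61), as counted apart from its near-identical copy Hspa1b, and the co-chaperone Dnajb1 had 77.9 CPM at postnatal day 3, against 1509.7 and 1115 CPM at 2 months (-4.06). The constitutive chaperones Hspa5 (0.25) and Hsp90ab1 (0.21) did not pass, with 1829.7 CPM, against 1591 and 1483 CPM at 2 months and 1175 CPM, against 953 and 1074 CPM at 2 months.

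Few ribosomal protein genes passed the rule. Of 74 tested ribosomal protein genes 5 were higher, below the 15.6% of all genes, and none lower, although the median was 0.59 and the summed level in the median cell was 20280.0 CPM, against 11500.0 and 14560.0 CPM at 2 months. Among them were Rpsa (1.37), Rps26 (1.37), Rps29 (1.25) and Rpl41 (1.09). Eef2, the elongation factor that moves the ribosome, had 1848 CPM at postnatal day 3, against 524 and 844 CPM at 2 months (1.43) and was 1 of 4 of 19 translation factors that were higher (median 0.49). Those 4 were 21.1% of the translation factors tested, against 15.6% of all genes. Cell cycle genes had 6 of 11 tested higher and none lower (median 1.24). These were the helicase subunits Mcm2 (3.24), Mcm3 (1.78), Mcm4 (1.55) and Mcm7 (1.84), and the early G1 genes Ccnd3, with 641 CPM at postnatal day 3, against 128.6 and 174.5 CPM at 2 months (2.07), and Cdk4, with 395 CPM at postnatal day 3, against 100 and 157.4 CPM at 2 months (1.61). Genes of mitosis were rare at both ages: Mki67 was found in 5.88% of newborn cells, against 2.86% and 4.35% of 2-month cells and Top2a in 4.41% of newborn cells, against 5.71% and 4.35% of 2-month cells, too few to be tested. Glycolysis and hypoxia genes had 3 of 18 higher and 1 lower (median 0.83), a share of higher genes near the 15.6% of all genes. Within chondrocyte-marker cells 9 of 19 were higher and 1 lower, and without the Xist cells 1 of 17 was higher and 1 lower (median 0.19). Pgk1, phosphoglycerate kinase, had 570.0 CPM at postnatal day 3, against 139.4 and 112.5 CPM at 2 months (2.17, and 2.51 within), Slc2a1, the glucose transporter GLUT1, 101.2 CPM at postnatal day 3, against 44.9 and 22.3 CPM at 2 months (1.56 and 2.14), and Gapdh 1023 CPM at postnatal day 3, against 508 and 455 CPM at 2 months (1.09 and 1.13). Car12, a carbonic anhydrase, was lower, with 6.76 CPM at postnatal day 3, against 111.7 and 87.5 CPM at 2 months (-3.70).

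In the IGF axis 4 of 8 tested genes were higher and none lower (median 0.77), and the call depended on the cells. Igf1, the postnatal growth factor, had 203.2 CPM at postnatal day 3, against 98 and 35.7 CPM at 2 months (1.59), but stood at 7.44 CPM in newborn cells with chondrocyte markers and 540.0 CPM in those under the limit, and its log2 fold within the marker cells was -2.86. Igfbp6, a binding protein with a preference for Igf2, behaved alike, at 1.72 over all cells and -3.35 within. Igfbp4 was higher over all cells (1.66). Igf1r, the receptor, had 196.5 CPM at postnatal day 3, against 166.6 and 93.04 CPM at 2 months and was higher only within the marker cells (1.17), a difference between the cell sets that was not tested.

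Wnt antagonists and receptors had 7 of 13 tested higher and 3 lower (median 0.45). The secreted antagonists Sfrp1, with 177.1 CPM at postnatal day 3, against 2.86 and 16.2 CPM at 2 months (4.08), and Sfrp2, with 176.5 CPM at postnatal day 3, against 2.29 and 0 CPM at 2 months (6.37), were higher, as were the receptors Fzd1 (1.88), Fzd2 (1.76) and Fzd8 (1.48). Sfrp1 lay mostly in newborn cells with chondrocyte markers, at 263.3 CPM against 28.8 CPM in those under the limit, and Sfrp2 in the others, at 25.1 and 437 CPM. Lower were Frzb, the cartilage antagonist (-1.38), Notum, which inactivates Wnt proteins (-1.995), and Lef1, a nuclear mediator (-2.08). Of 16 tested BMP and TGF-beta genes 2 were higher, Gdf5 and the ligand Tgfb3 (1.502), and 6 were lower, among them Bmp7 (-1.94), the receptor Bmpr2 (-3.18), the antagonist Chrdl1 (-2.52) and the target Id2 (-1.18), with a median of -1.17. The share of higher genes, 12.5%, lay below the 15.6% of all genes, and that of lower genes, 37.5%, above the 10.6% of all genes.

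Among growth factor and cytokine receptors none of 13 tested was higher and 5 were lower, although the median was 0.45 over all 20 listed. Within chondrocyte-marker cells 3 of 13 were higher, and without the Xist cells 2 of 15. Lifr, the receptor of leukaemia inhibitory factor, had 66.8 CPM at postnatal day 3, against 953 and 877 CPM at 2 months (-3.76). Osmr, of oncostatin M, had 35.3 CPM at postnatal day 3, against 201.7 and 80.3 CPM at 2 months (-1.97). Tnfrsf11b, the decoy receptor osteoprotegerin, had 14.7 CPM at postnatal day 3, against 571 and 184.6 CPM at 2 months (-4.59), and Fgfr1 331 CPM at postnatal day 3, against 806 and 755 CPM at 2 months (-1.24). Antigen presentation genes had 4 of 8 lower and 1 higher (median -2.83), with H2-K1, a class I molecule that may share reads with its paralogs, at 89.4 CPM at postnatal day 3, against 318 and 351 CPM at 2 months (-1.89), and Ifitm3, an interferon-induced membrane protein, the one that was higher (2.48). Of 7 tested complement genes 4 were lower and C1ra was higher (2.78), and of 8 marrow niche genes 4 were lower. The largest of these was Apoe, apolipoprotein E, with 82.4 CPM at postnatal day 3, against 4331 and 4666 CPM at 2 months (-5.75), found in 10.3% of newborn cells (95% interval 4.24 to 20.1%), against 62.9% and 53.6% of cells on the 2-month plates (both together 49.6 to 66.6%). Cxcl12, the marrow chemokine, had 237.1 CPM at postnatal day 3, against 221.4 and 58.8 CPM at 2 months and did not pass. In the list of surface marker genes Cd34 was higher, with 387 CPM at postnatal day 3, against 1.71 and 5.22 CPM at 2 months (6.44). It is a marker of many progenitors and was also listed as a fibroblast marker. Whether it was stained in the sort is not given in the labels. Cd200 was lower (42.1 CPM at postnatal day 3, against 244.6 and 149.9 CPM at 2 months, -2.20). Limb patterning factors were divided, with Pitx1, of the hindlimb, higher (144.1 CPM at postnatal day 3, against 24.9 and 22.3 CPM at 2 months, 2.56) and Shox2 lower (75 CPM at postnatal day 3, against 258.3 and 317 CPM at 2 months, -1.92).

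Matrix proteases had 5 of 14 tested higher and 3 lower (median 0.01). Mmp2, gelatinase A, had 2037 CPM at postnatal day 3, against 171.1 and 425 CPM at 2 months (2.77) and Mmp14, its membrane-bound activator, 857 CPM at postnatal day 3, against 224.6 and 268.7 CPM at 2 months (1.79). Both were higher within chondrocyte-marker cells as well (2.69 and 1.72). Timp3, an inhibitor of such proteases, was lower (142.4 CPM at postnatal day 3, against 423 and 312 CPM at 2 months, -1.36). Enzymes that process collagen had 6 of 23 higher, such as P4ha2, a prolyl hydroxylase subunit (863 CPM at postnatal day 3, against 178.6 and 314 CPM at 2 months, 1.80), and 2 lower, of which Plod2, a lysyl hydroxylase, had 242.9 CPM at postnatal day 3, against 818 and 516 CPM at 2 months (-1.45). These shares were 26.1% higher and 8.70% lower, against 15.6% and 10.6% of all genes.

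Among the remaining genes with the largest folds or shares, several were in no list. Gpc3, glypican 3, a heparan sulfate proteoglycan whose loss causes overgrowth in humans and mice, had 619 CPM at postnatal day 3, against 0 and 0.290 CPM at 2 months, a ratio of 4303 (counting interval 771 to 170034) that rests on 1 read at 2 months, and was found in 41.2% of newborn cells, against 0% and 1.45% of 2-month cells. Capn6, a calpain-like protein, had 1879 CPM at postnatal day 3, against 338 and 229.9 CPM at 2 months (2.72). Nrk, a kinase, had 479 CPM at postnatal day 3, against 43.1 and 9.28 CPM at 2 months (4.14). Fstl1, a secreted follistatin-like protein, had 1927 CPM at postnatal day 3, against 287.4 and 130.7 CPM at 2 months (3.20). All of these were higher within chondrocyte-marker cells too, at 246.05 CPM for Gpc3 in newborn cells with the markers, and at log2 folds of 2.97, 3.78 and 2.92. Emilin3, of the elastin interface family, was found in 16.2% of newborn cells, against 0% and 0% of 2-month cells, at least 266.4-fold higher in level. Cpxm2, a carboxypeptidase-like protein, had 218.2 CPM at postnatal day 3, against 0.286 and 0 CPM at 2 months, a ratio of 1517 (counting interval 271.4 to 59988). Both stood higher in newborn cells with chondrocyte markers, at 158.1 and 300.0 CPM, than in those under the limit, at 40.8 and 77.6 CPM. Egfl6, a matrix protein with EGF repeats, had 170.6 CPM at postnatal day 3, against 0 and 0 CPM at 2 months, at least 395-fold higher, and Lrrc15, a leucine-rich repeat membrane protein, 210 CPM at postnatal day 3, against 0 and 0.290 CPM at 2 months, a ratio of 1459.5 (counting interval 261.1 to 57727). Egfl6 and Lrrc15 lay in the cells under the marker limit, at 424 and 571 CPM, against 23.3 and 0 CPM in those with the markers.

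On the other side, Rasd1, a small GTPase induced by dexamethasone, was at 0 in all newborn cells against 815 and 662 CPM at 2 months, at least 837-fold lower. Tgm2, transglutaminase 2, was at least 149.6-fold lower (0 CPM at postnatal day 3, against 120.3 and 143.8 CPM at 2 months), Car8, a protein related to carbonic anhydrases, at least 120.1-fold (found in 0% of newborn cells, against 25.7% and 14.5% of 2-month cells), and Abcg1, a lipid transporter, at least 73.3-fold (0 CPM at postnatal day 3, against 74.6 and 54.8 CPM at 2 months). A count of 0 in 68 newborn cells allows a share of up to 4.41% and a level of up to 0.882 CPM. Calml3, a calmodulin-like protein, and Cpa6, a carboxypeptidase, were also at 0 at postnatal day 3, at least 47.9-fold and 47.8-fold lower. Serpina1d, of a cluster of near-identical protease inhibitors between which reads may be split, was at least 299-fold lower (0 CPM at postnatal day 3, against 265.4 and 262.3 CPM at 2 months), and its neighbours Serpina1a, Serpina1b and Serpina1c were also at 0 in newborn cells. Spon1, a secreted adhesion protein, had 7.06 CPM at postnatal day 3, against 309 and 286.1 CPM at 2 months (-5.21). Gpx3, an extracellular glutathione peroxidase, had 139.1 CPM at postnatal day 3, against 1195 and 1767 CPM at 2 months (-3.40), found in 16.2% of newborn cells, against 70% and 75.4% of 2-month cells. Gadd45g, a growth arrest gene, had 70.3 CPM at postnatal day 3, against 1456 and 1933 CPM at 2 months (-4.57).

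Genes that were higher and genes that were lower differed in how shares and levels moved. For 843 genes that were higher and had reads at both ages, the median log2 ratio of the share of cells with the gene was 1.47 and that of the level within those cells was 0.58, and the share was the larger of the 2 in 81.7%. For 558 genes that were lower these were -0.67 and -1.45, and the share was the larger in 27.8%. Genes higher at postnatal day 3 were thus mostly found in more cells, and genes lower were mostly found at a lower level in the cells that held them. The share of cells with a gene at fixed depth also moves with the number of genes per cell, which was 1.38 times as high in newborn cells, and its part in this result was not tested.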

How the data were processed

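Expression was measured by SmartSeq2 in single sorted cells. The deposited table holds expected counts per gene, not normalized by the authors, which per the submitters' processing notes were made with bcl2fastq 2.18, STAR 2.4 and RSEM 1.2.21 on GRCm38.p6. Of these values 14.8% were not whole, and all were rounded. The 92 spike-in rows, 24 rows named by a number and 1 column that matched no sample were left out. Cells with at least 1000 genes, 50000 reads and under 20% mitochondrially encoded reads were thinned without replacement to 50000 reads, with a fixed seed, in Python 3.11.15 with numpy 2.4.6. No doublet caller was run. A few genes are not reported here.

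The level of a gene was its mean CPM over the cells of a plate, and 2 months was the mean of its 2 plates. Log2 folds had 1 CPM added. Coordinates and gene types came from GENCODE release M21. Since each age is 1 sample, no p-value was computed, genes were called by the size rule given with the results, and shares had exact Clopper-Pearson intervals. Genes were named when they were among the 15 largest folds each way, among the 8 largest gains or losses in share, or in a gene list. Members and lists were chosen with earlier results of these data known. The script was tested on simulated data. Alternatives covered depth, draw, cell limits, plates, added constant, filter and scaling (edgeR 4.0.16 TMM).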

Additional observations from a re-analysis of the deposited data

How the results depend on the processing

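The limits are that each age is 1 sample of unnamed animals and that age and batch cannot be told apart. Xist reads lay in 22 of 68 newborn cells and in no 2-month cell, so that sex may differ between the ages despite the male label. At 50000 reads a cell a gene at 0 allows up to 0.882 CPM at postnatal day 3 and 0.432 CPM at 2 months. No paired analysis was possible because the labels number no animals that the ages share and no test was run. Over the named genes, 4961 of 5532 recomputed folds kept direction and call, 556 kept direction only and 15 changed sign, 4 of these with no newborn read. The named genes were chosen for large folds, large shares or list membership, so these counts do not stand for all tested genes. Of the 857 higher and 582 lower genes, 742 and 513 were called again in another random draw. Without thinning 615 and 426 were called again, and with plate 3 left out 857 and 532. In cells of at least 2000 genes and 200000 reads only 433 and 309 were called again. Of 768 recomputed list medians 566 moved by no more than the spread between the 2-month plates and the rest by more, and 41 changed sign, of which 4 had been at least 1 in size. Of 80 recomputed differences in share 32 moved by more than that spread and none changed sign. Against 15.6% of tested genes higher and 10.6% lower (857 and 582 genes), there were 11.7% and 9.82% (2488 and 2082) without a filter on low values and 4.54% and 3.91% at 4-fold. With a 2-month plate left out there were between 26.3% and 28.04% higher and between 17.39% and 17.5% lower. Leaving out the 2 highest cells of each gene gave 29.96% higher (1347) and 10.1% lower (456), with the median of all genes at 0.59. Adding the third 2-month plate gave 12.6% higher (680) and 5.01% lower (270), with the median of all genes at 0.23. TMM scaling, which moved the median of all genes to -0.17, gave 692 higher and 677 lower, so that 50.5% of calls were higher, against 59.6%. At 4-fold, 7 imprinted genes and 5 collagens were higher and 12 immediate early genes lower, and with the third plate 11 immediate early and 6 glucocorticoid-induced genes were lower. The ratio of genes per cell, 1.38, was 1.34 at 100000 reads, 1.37 in another draw, 1.40 where 2 reads were needed and 1.44 with the third plate. In cells of at least 2000 genes and 200000 reads Meis1, mt-Co2 and mt-Atp8 reversed to 0.70, 0.17 and 0.45. Ltbp1 was -0.86 with the third plate. The median of marrow niche genes, -1.28 over all cells, was 0.94 without the 2 highest cells, 0.84 without plate 3 and -1.51 without plate 4. That of complement genes was 0.32 without plate 3 and -1.37 without plate 4. The remaining alternatives were chosen after seeing the data: leaving out Xist cells, leaving out mitochondrial, nuclear and repeat-like RNA, and keeping only chondrocyte-marker cells. In the last, Mfap4 and Aspn were at -0.21, Mfap5 at -0.71, Igf1 at -2.86, Igfbp6 at -3.35, Col5a3 at -2.25, Fbn1 at -0.78, Tmsb4x at -2.17, Vim at -0.63, Dpt at -1.75, Tnmd at -0.35 and the median of the surface marker list at -0.20. Mfap4, Aspn, Mfap5 and Col5a3 had no newborn read there and at most 3.53 CPM at 2 months, so that their fitted values give no direction. For the other reversals the cause was not tested.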

Other observations

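Gene types differed in how many of their members were called, a difference that was not tested. Of 5309 tested protein-coding genes 834 were higher at postnatal day 3 and 542 lower, whereas of 25 long intergenic noncoding RNAs 6 were higher and 9 lower, and of 14 processed transcripts none was higher and 6 were lower. Of 18 loci annotated as needing experimental support 1 was higher and 9 were lower.

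Several predicted genes were found in every 2-month cell and in fewer newborn cells, and they were picked after their values were seen. Gm26870 (chr9:3000282-3038313 (-), GRCm38) had 9.71 CPM at postnatal day 3, against 2207 and 3063 CPM at 2 months, a log2 fold of -7.94, and was found in 27.9% of newborn cells, against 100% and 100% of 2-month cells. Gm10800 (chr2:98666547-98667301 (-)) had 54.4 CPM at postnatal day 3, against 5933 and 8983 CPM at 2 months (-7.07). Gm10801 (chr2:98662237-98664083 (+)), near it on chromosome 2, had 5 CPM at postnatal day 3, against 606 and 848 CPM at 2 months (-6.92). Gm21738 (chr14:19415857-19418930 (-)) had 4.41 CPM at postnatal day 3, against 575 and 869.6 CPM at 2 months (-7.06). Reads of such loci may be split between copies, and their part in the other results was examined only by leaving them out.

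Sox10, the transcription factor of glia, was found in 1 newborn cell. Srgn, serglycin of blood and marrow cells, was at 0 in newborn cells and was found in 5.71% and 18.8% of 2-month cells, at least 63.8-fold lower at postnatal day 3. Of 12 fetal RNA-binding and HMG genes 4 were tested and Igf2bp2, which binds Igf2 messenger RNA, was higher, with 116.8 CPM at postnatal day 3, against 44.9 and 12.8 CPM at 2 months (1.98). Of the senescence genes Cdkn1a, the inhibitor p21, had 182.9 CPM at postnatal day 3, against 304 and 281.4 CPM at 2 months and did not pass.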
